A study of Mus musculus with 17 samples.

Results

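Glutamate receptor subunits and the scaffold proteins that hold them at the synapse were followed in mouse cochlear RNA as a list of 33 genes, 24 receptors and 9 scaffolds. The list was drawn up with earlier results of these data known, its members were then found in the table by gene name alone, and the names matched 34 of 35285 genes. Dlg2 occurred as 2 entries, a protein-coding gene and a separate transcript upstream on the same strand of chromosome 7 that carries the same name. The RNA came from 17 male C57BL/6J mice, 8 weeks old and labelled wild type, 1 library per mouse, with 3 Control, 7 NE and 7 Bri libraries. The NE group heard noise of 8 to 16 kHz at 100 dB SPL over 2 h, called octave-band in the methods and broadband in the labels. The Bri group heard this noise too and was given brimonidine, which activates α2-adrenergic receptors, by 3 intraperitoneal doses of 1 mg/kg, on the day before, the day of and the day after noise. Control mice were injected with saline and heard no noise, whether NE mice were injected is not given in the sources used here, and no library came from brimonidine without noise. Cochleae were taken 2 days after exposure, and levels are given in FPKM, fragments scaled to exon length and to the library's counted fragments, which can be compared between genes.

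In the cochlea, inner hair cells release glutamate onto the endings of spiral ganglion neurons, where AMPA receptors carry the fast response and NMDA and kainate receptors contribute to slower signalling. Metabotropic receptors act through G proteins, group I by calcium release and groups II and III by lowering cAMP. Under the membrane, PSD-95 and its relatives bind receptor tails, and Shank and Homer proteins link them to metabotropic receptors and to the actin skeleton.

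The libraries held 14457734 to 18288854 counted fragments, and 2 stood apart for these genes. Control 2 was the highest of the 3 controls for 34 of 34 entries, at a median of 2.57 times the mean of Control 1 and Control 3. Bri 5 was the highest of the 7 Bri libraries for 27 of 34 entries. The labels name the cell type as interstitial cells, but of 36 defining markers for 12 cell types, 30 were above 0 in every library, among them those of stroma (Col1a2, Dcn, Pdgfra), hair cells (Otof, Slc17a8, Slc26a5), Schwann cells and marrow neutrophils. The RNA thus came from a mixed tissue, in which fewer cells of a type and less RNA per cell cannot be told apart.

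Markers of brain cells moved with the groups. The summed FPKM of 8 cerebellar granule cell markers was 185 in Control 1, 504 in Control 2 and 201 in Control 3, against 19.4 to 28.4 in NE and 20.1 to 69.1 in Bri, where Bri 5 held the 69.1. For 8 of 8 of these genes every NE library lay below every control, and the defining marker Gabra6 was at 0 in 3 libraries. The 7 Purkinje cell markers summed to 64.5 to 191 in Control, 1.31 to 3.82 in NE and 0.836 to 22.0 in Bri, again with 7 of 7 genes not overlapping between NE and Control and with Pcp2 and Ppp1r17 at 0 in some libraries. Central glia markers summed to 40.6 to 104 in Control, 18.2 to 25.2 in NE and 15.7 to 26.0 in Bri, with 7 of 7 below in NE and Opalin at 0 in some libraries. Forebrain neuron markers showed less: 1 of 5 genes did not overlap, and the sums were 5.05 to 8.88, 4.01 to 7.01 and 3.71 to 6.01, with Neurod6 and Tbr1 at 0 in some libraries. The 8 spiral ganglion markers summed to 55.9 to 138 in Control, 34.0 to 77.4 in NE and 37.8 to 54.5 in Bri, and 1 of 8 lay lower in every NE library. The 10 hair cell markers summed to 27.4 to 29.7, 32.3 to 39.5 and 33.5 to 39.9, much of it Gfi1, which was 7.79 FPKM in Control 2 against 17.1 and 16.2 in the other controls. Without Gfi1 the sums were 11.2 to 21.9, 11.2 to 15.2 and 12.1 to 15.7, and no hair cell marker lay lower in every NE library. None of the markers of fibrocytes and epithelium, stroma, Schwann cells, melanocytes, neutrophils or muscle did either. The 5 muscle markers summed to 170, 463 and 204 in Control 1, 2 and 3, 326 to 810 in NE and 265 to 679 in Bri, and 5 of 5 were higher in every NE library than in Control 1 and Control 3 but not than in Control 2. In Control 2 the neutrophil sum was 9233, against 42034 in Control 1 and 44408 in Control 3. The part of these cell types in the results that follow was not tested.

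**Figure D1:**
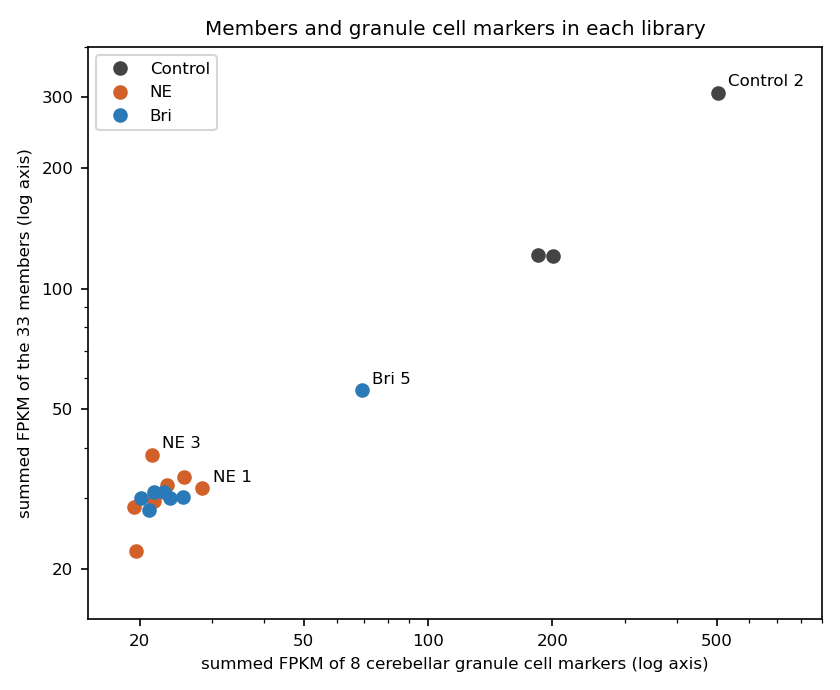
Summed FPKM of the 33 members (vertical, log axis) against the summed FPKM of 8 cerebellar granule cell markers (horizontal, log axis), 1 point per library, coloured by group. The 3 controls lie at 120 to 308 on the vertical axis, the NE libraries at 22.2 to 38.6, and Bri 5 stands alone at 55.9.

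NE and Control were compared to ask how noise changes the transcripts of these receptors and scaffolds. Summed over the 33 names, the members reached 121 FPKM in Control 1, 308 in Control 2 and 120 in Control 3, against a lowest of 22.2, a median of 31.7 and a highest of 38.6 in NE. Control and NE sums did not overlap, and the control mean was 5.91 times the NE mean, or 3.90 times without Control 2. With no filter on low values, 24 of the 34 entries were lower in every NE library than in every control, where 10.1% of all 33587 genes did the same, and 13 of 34 passed limma's adjusted p of 0.05 with a log2 change of at least 1 downwards, against 2.67% of all genes. The remaining 10 entries overlapped: Gria3, Grik1, Grin2b, Grin3b, Grm5, Grm6, Grm8, Homer1, Homer2 and the other Dlg2 entry.

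In the main test, on genes with at least 1 FPKM in 3 or more of the libraries compared, 17 entries could be tested and 17 could not. Gria1, Gria2, Grik2, Grin1, Grin2c, Grm4 and Shank2 reached 1 FPKM in at most 1 NE library and passed the filter only because the controls were high, so their selection already favoured a difference. Of the 17, 13 fell and 0 rose, where 5.49% of 15950 genes fell and 0.27% rose. All 7 of these genes were among the 13, and of the 10 members that NE libraries alone carried past the filter 6 fell. Control 2 bore on this count: without it 8 of 14 fell (background 2.2%). On the original gene set 11 of 17 fell without it (background 3.47%), the limma calls for Homer3 and Shank3 going. The fragment counts behind the FPKM values were also fitted with limma's voom method. It keeps low genes, but a gene can also pass its own filter through the controls alone. Voom gave 24 of 33 lower (background 8.79%) and, without Control 2, 21 of 33 (background 6.16%), Homer3 and Shank3 among the 21. Fold changes below are from limma on log2(FPKM + 1), which understates low genes, or from voom where named.

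**Figure D2:**
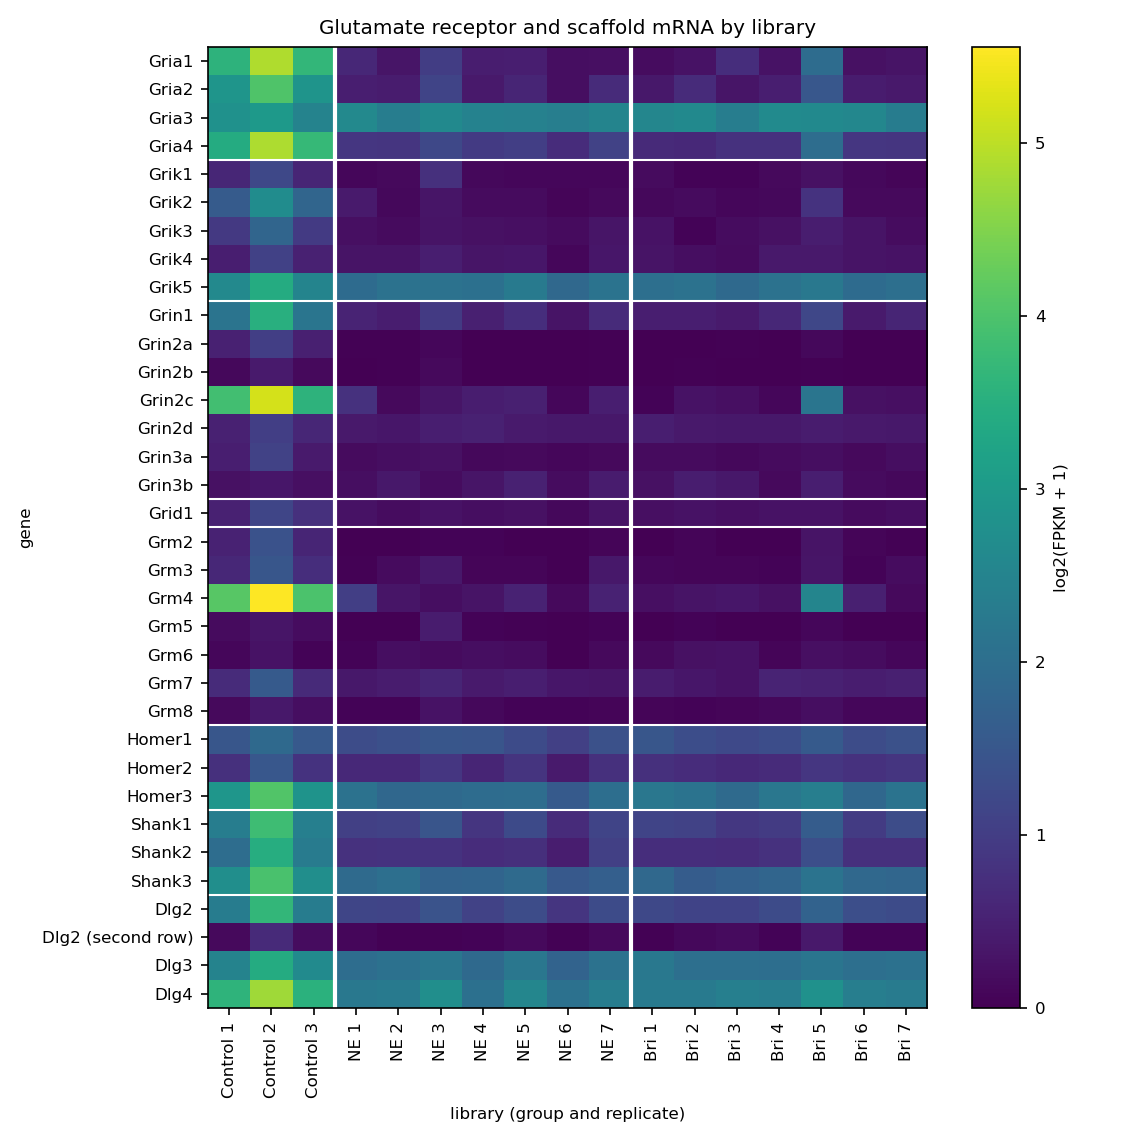
Heat map of log2(FPKM + 1) for the 34 entries (lines, ordered by family) in the 17 libraries (columns, ordered by group), with white lines between groups and families. Control 2 is the brightest control for each entry, Gria3 keeps a similar shade in all groups, and Bri 5 is the brightest Bri library for 27 entries.

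AMPA receptors are built from the products of Gria1 to Gria4. Gria1 (ENSMUSG00000020524, chromosome 11, 57011387 to 57330244, plus strand, mm10) was 11.1, 28.5 and 11.8 FPKM in Control 1, 2 and 3, and its lowest, median and highest NE values were 0.157, 0.371 and 1.02. The groups did not overlap, and all NE libraries lay more than 10 times below the lowest control. Gria1 fell by 3.58 ± 0.27 on the log2 scale (SE, limma adjusted p = 4.99e-05). Without Control 2, voom gave -5.03 in place of -5.48.

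Gria2 encodes the subunit that makes the channel nearly impermeable to calcium. It was 6.49, 15.3 and 6.39 FPKM in the controls and 0.147, 0.378 and 1.21 at the lowest, median and highest in NE. No NE library reached a control, and NE 3 was the highest of its group. Gria2 fell by 2.72 ± 0.26 (limma adjusted p = 0.000153). Gria4, a fast-gating subunit, was 9.69, 28.2 and 12.3 FPKM in the controls and 0.624, 0.928 and 1.31 in NE, again with a clear gap. It fell by 3.05 ± 0.25 (limma adjusted p = 6.35e-05).

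Gria3 behaved differently from its family. This X-linked gene (41400854 to 41678601) was 5.97, 6.93 and 4.59 FPKM in the controls, and its lowest, median and highest NE values were 4.12, 4.51 and 5.23. Control 3 lay inside the NE range, so the groups overlapped. The difference was -0.27 ± 0.11 on the log2 scale (95% interval -0.51 to -0.02, limma adjusted p = 0.125), and it did not pass the test. Without Control 2 it was -0.15 (95% interval -0.39 to 0.09).

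**Figure D3:**
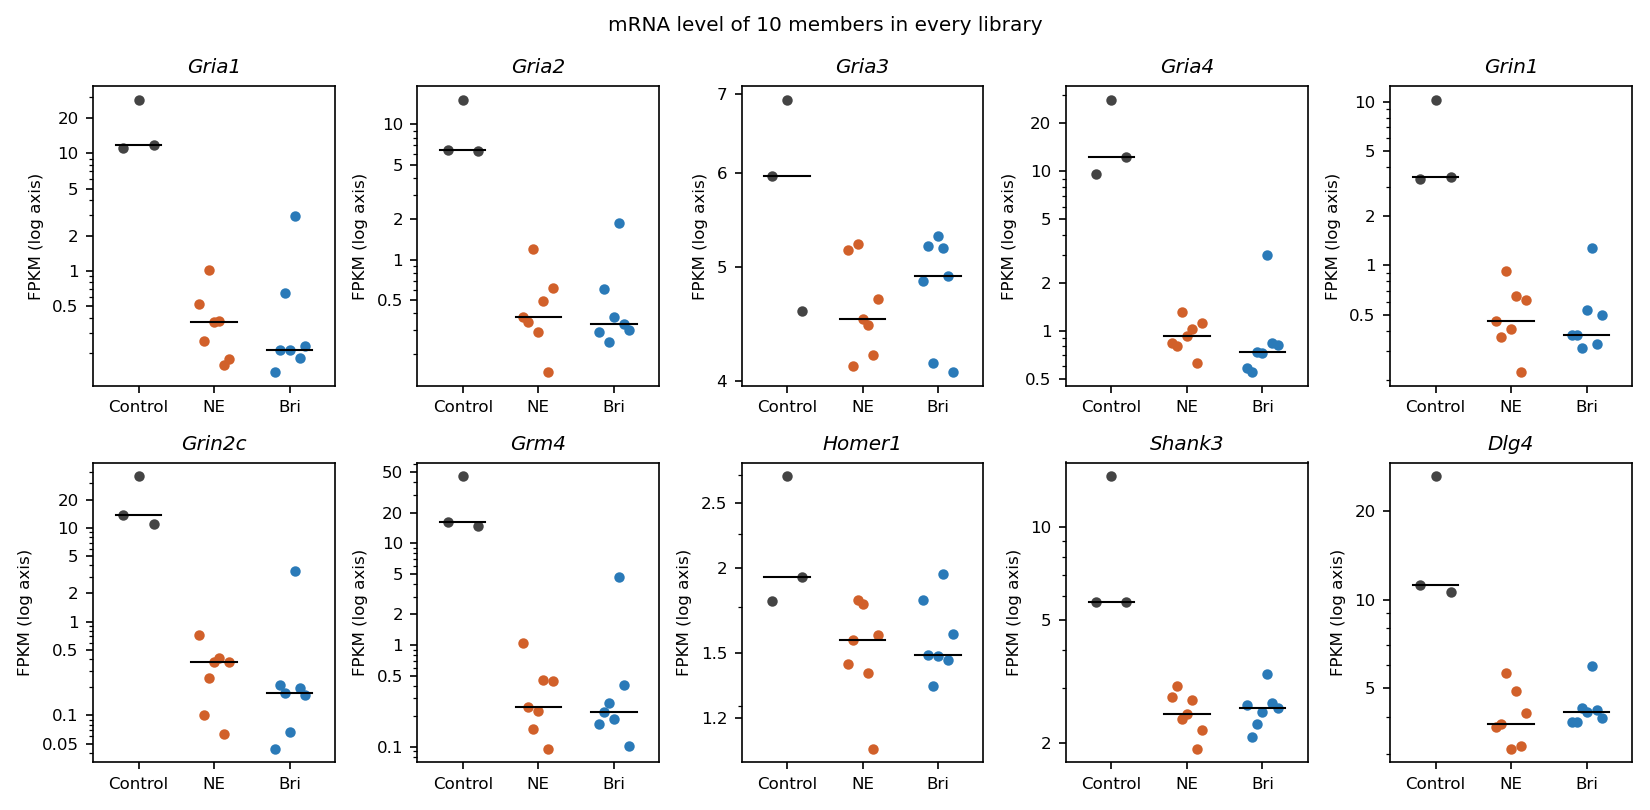
FPKM (log axis, its range set for each gene) of 10 members in every library: points are libraries, and black lines are group medians. Gria3 and Homer1 overlap between Control and NE, the other 8 genes do not, and Control 2 and Bri 5 are the highest points of their groups for Gria1, Gria2, Gria4, Grin1, Grin2c, Grm4, Shank3 and Dlg4.

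Among kainate receptor genes, the low-affinity subunit Grik2 differed most among the tested ones. It was 2.03, 5.51 and 2.53 FPKM in the controls and 0.0574, 0.111 and 0.327 at the lowest, median and highest in NE, with no overlap. Grik2 fell by 1.84 ± 0.21 (limma adjusted p = 0.000344), and voom gave -4.54. Grik5, an obligate partner subunit, was the most abundant of the 5 genes, at 5.11, 9.65 and 4.67 FPKM in the controls and 2.70, 3.24 and 3.80 in NE. The groups did not overlap, but the difference of -0.78 ± 0.17 (limma adjusted p = 0.0129) stayed under the minimum size of 1. Without Control 2 it was -0.50 (limma adjusted p = 0.0106).

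The other kainate genes were too low for the main test. Grik3 was 0.902, 2.49 and 0.915 FPKM in the controls and 0.126, 0.165 and 0.240 in NE, and voom called it lower at -2.87 (adjusted p = 0.000285). Grik1 overlapped through NE 3, which held 0.703 FPKM against a median of 0.0736 in the other NE libraries and 0.483 in Control 3. Voom gave -2.63 for Grik1 (adjusted p = 0.00839) and -1.32 for Grik4 (adjusted p = 0.0594), so Grik4, at 0.383 to 1.10 FPKM in Control and 0.0745 to 0.374 in NE, did not pass.

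NMDA receptors combine the obligatory GluN1 subunit, the product of Grin1, with GluN2 or GluN3 subunits. Grin1 was 3.37, 10.3 and 3.46 FPKM in the controls and 0.222, 0.458 and 0.919 at the lowest, median and highest in NE. All 7 NE libraries lay below all controls, and Grin1 fell by 2.00 ± 0.27 (limma adjusted p = 0.000863). Grin2c, whose GluN2C subunit is known in the brain for its high level in cerebellar granule cells, was 13.7, 35.7 and 11.0 FPKM in the controls and 0.0629, 0.369 and 0.724 in NE. Its control mean was 61.7 times its NE mean, or 37.8 times without Control 2, and it fell by 3.83 ± 0.29 (limma adjusted p = 4.99e-05).

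The remaining NMDA genes were at most 1.14 FPKM in any library. Grin2a, a GluN2 gene of mature neurons, was 0.424, 1.03 and 0.406 FPKM in the controls and 0.00354, 0.0157 and 0.0733 in NE, which were 110 to 281 and 1 to 23 fragments, and voom called it lower at -5.09 (adjusted p = 0.000168). Grin2b, the GluN2 gene of early development, overlapped through NE 3 and was called lower at -3.65 (voom adjusted p = 0.00746). Grin3a was called lower at -2.15 (voom adjusted p = 0.00434). Grin2d kept 0.271 to 0.419 FPKM in NE against 0.426 to 1.05 in Control, and its voom difference of -0.93 (adjusted p = 0.0424) was under the minimum size. Without Control 2 voom gave -0.55 for Grin2d (adjusted p = 0.173). Grin3b, at 0.170 to 0.260 FPKM in Control and 0.135 to 0.433 in NE, differed by 0.15 (95% interval -0.75 to 1.06, voom adjusted p = 0.827).

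The upstream promoters of 4 receptor genes are shown because 3 of them (Grin2c, Gria2 and Grin1) fell together and Grik5 did not reach the minimum size. Each is the 250 bases before the RefSeq start nearest to the deposited 5′ end, from RefSeq on GRCm38.p6, read 5′ to 3′ on the gene's strand, which is the minus strand for all 4. Capitals mark the GC box GGGCGG, bound by Sp1, and GGACAGC, a piece of the RE1 element bound by REST, a repressor of neuronal genes, each searched on both strands. The windows lie at chr11:115267244-115267493, chr3:80802836-80803085, chr2:25319188-25319437 and chr7:25072370-25072619, in the order printed.
Grin2c: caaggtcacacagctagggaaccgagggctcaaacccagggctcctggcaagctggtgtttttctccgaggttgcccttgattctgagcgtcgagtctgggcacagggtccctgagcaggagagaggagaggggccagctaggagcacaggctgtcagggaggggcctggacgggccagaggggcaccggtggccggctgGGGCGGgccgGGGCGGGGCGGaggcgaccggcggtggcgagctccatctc
Gria2: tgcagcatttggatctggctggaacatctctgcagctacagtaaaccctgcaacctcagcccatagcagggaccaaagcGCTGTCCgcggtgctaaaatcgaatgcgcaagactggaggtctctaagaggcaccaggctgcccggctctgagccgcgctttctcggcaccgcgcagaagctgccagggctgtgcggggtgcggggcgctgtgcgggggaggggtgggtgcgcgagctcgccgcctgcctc
Grin1: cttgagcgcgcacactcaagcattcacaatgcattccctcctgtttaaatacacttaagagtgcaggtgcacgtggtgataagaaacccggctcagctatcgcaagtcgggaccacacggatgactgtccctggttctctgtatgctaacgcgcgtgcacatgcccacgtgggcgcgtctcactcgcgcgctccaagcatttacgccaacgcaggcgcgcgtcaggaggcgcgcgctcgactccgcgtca
Grik5: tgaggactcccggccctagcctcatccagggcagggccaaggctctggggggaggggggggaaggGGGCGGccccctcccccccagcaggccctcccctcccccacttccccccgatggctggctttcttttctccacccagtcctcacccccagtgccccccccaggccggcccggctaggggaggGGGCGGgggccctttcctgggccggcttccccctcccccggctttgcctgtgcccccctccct

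Grin2c held 3 GC boxes, Grik5 held 2, and Gria2 held 1 RE1 piece on the opposite strand. Grin1 held neither motif in this window. Of the 22 members with a RefSeq window, 11 held a GC box, against 32.7% of 32851 windows of the same length, and 2 (Gria2 and Grm2) held the RE1 piece, against 5.28%. GC content had a median of 63.8% over these members, with a range of 45.2% to 83.2%, against a median of 52.4% over all windows. Members gave 1 window each, while the background took every window without choosing 1 per gene, so these are not like for like. The chosen start lay 11697 bases from the deposited 5′ end for Grin2d, 6773 for Dlg3 and 4122 for Homer1.

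Grm4, a group III metabotropic receptor best known at parallel fibre endings of the cerebellum, had the largest limma fold change of the members. It lies on chromosome 17 (27422387 to 27513341, minus strand) and was 16.2, 46.0 and 14.9 FPKM in the controls and 0.0954, 0.244 and 1.04 at the lowest, median and highest in NE. NE 1 held the 1.04 and was still more than 10 times below the lowest control. Grm4 fell by 4.11 ± 0.31 (limma adjusted p = 4.99e-05), and its control mean was 67.7 times its NE mean, or 40.9 times without Control 2.

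The other metabotropic genes were below 2 FPKM in every library. The group II receptors Grm2 and Grm3 were lower in all NE libraries. Grm2 was 0.452, 1.64 and 0.483 FPKM in the controls and 0, 0.0116 and 0.0580 in NE, at 0 to 5 fragments a library, and voom gave -5.17 (adjusted p = 0.000484). Grm3 was 0.544, 1.81 and 0.653 FPKM in the controls and 0, 0.0561 and 0.281 in NE, with a voom difference of -3.55 (adjusted p = 0.0073). Of the group III genes, Grm7 was called lower at -1.41 (voom adjusted p = 0.0279) but not without Control 2, where voom gave -0.83 (adjusted p = 0.0562). Grm8 differed by -1.49 (voom adjusted p = 0.0595) and Grm6, the receptor of retinal bipolar cells, by -0.04 (95% interval -1.71 to 1.62, voom adjusted p = 0.975), or by 0.59 without Control 2 (95% interval -1.39 to 2.58, voom adjusted p = 0.773).

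Grm5, a group I receptor, rested on 1 library in NE. NE 3 held 0.346 FPKM, or 62 fragments, above all controls (0.115 to 0.251 FPKM), while the median of the other NE libraries was 0.0111. Voom called Grm5 lower at -2.90 (adjusted p = 0.0443), but not without Control 2 (-2.58, adjusted p = 0.124), and the exact permutation test on the group means gave p = 0.183. Grid1, a delta receptor that binds cerebellins at adhesion sites, was 0.431, 1.24 and 0.714 FPKM in the controls and 0.0832, 0.197 and 0.233 in NE. These did not overlap, and Grid1 was called lower at -2.10 (voom adjusted p = 0.002).

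Homer proteins bind group I metabotropic receptors and Shank. Homer3, known from Purkinje cells, was 6.53, 15.6 and 6.18 FPKM in the controls and 1.99, 2.88 and 3.26 at the lowest, median and highest in NE, with no overlap. Homer3 fell by 1.36 ± 0.23 (limma adjusted p = 0.00281), and without Control 2 the limma difference was -0.97, under the minimum size. Voom without Control 2 still called Homer3 lower, at -1.20 (adjusted p = 0.000134). Homer1 was 1.79, 2.74 and 1.94 FPKM in the controls and 1.08, 1.57 and 1.79 in NE, where the highest NE library just passed the lowest control. Its difference of -0.32 ± 0.13 (limma adjusted p = 0.111) did not pass, and without Control 2 it was -0.19. Homer2 overlapped as well, at 0.696 to 1.86 FPKM in Control and 0.322 to 0.833 in NE. Voom gave -0.77 (adjusted p = 0.136) for it, or -0.32 without Control 2.

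All 3 Shank genes, which encode large scaffolds between PSD-95 partners and actin, lay lower in every NE library than in every control. Shank1 was 4.12, 13.3 and 4.25 FPKM in the controls and 0.609, 1.14 and 1.74 in NE. Shank2 was 2.95, 9.98 and 3.97 FPKM in the controls and 0.359, 0.725 and 1.06 in NE. They fell by 1.79 ± 0.29 (limma adjusted p = 0.00236) and by 1.82 ± 0.26 (limma adjusted p = 0.00117). Shank3 was 5.73, 14.7 and 5.71 FPKM in the controls and 1.91, 2.48 and 3.05 in NE, so it kept the highest NE level of the 3. Shank3 fell by 1.35 ± 0.23 (limma adjusted p = 0.00344), and without Control 2 the limma difference was -0.94, under the minimum size. Voom without Control 2 still called Shank3 lower, at -1.20 (adjusted p = 9.46e-05).

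Dlg genes encode PSD-95 and its relatives. Dlg4, the gene of PSD-95 itself (chromosome 11, 70017085 to 70045532, plus strand), was 11.2, 26.2 and 10.6 FPKM in the controls and 3.12, 3.80 and 5.66 at the lowest, median and highest in NE. The gap between the groups was narrower than for Gria1, Gria2 and Gria4, and Dlg4 fell by 1.65 ± 0.25 (limma adjusted p = 0.00154). Dlg2, the gene of PSD-93, was 4.06, 11.7 and 4.01 FPKM in the controls and 0.806, 1.25 and 1.70 in NE. It fell by 1.60 ± 0.26 (limma adjusted p = 0.00223), while the other Dlg2 entry stayed at 0.101 to 0.575 FPKM in Control and 0.0205 to 0.104 in NE, at 1 to 24 fragments a library. Dlg3, the X-linked gene of SAP102, was 4.56, 9.61 and 5.34 FPKM in the controls and 2.43, 3.19 and 3.58 in NE, which did not overlap. Its difference of -0.82 ± 0.18 (limma adjusted p = 0.0119) stayed under the minimum size, but it passed both thresholds by voom (adjusted p = 0.0076) and by limma without Control 1 (-1.01, adjusted p = 0.00629), while voom without Control 2 gave -0.68.

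**Figure D4:**
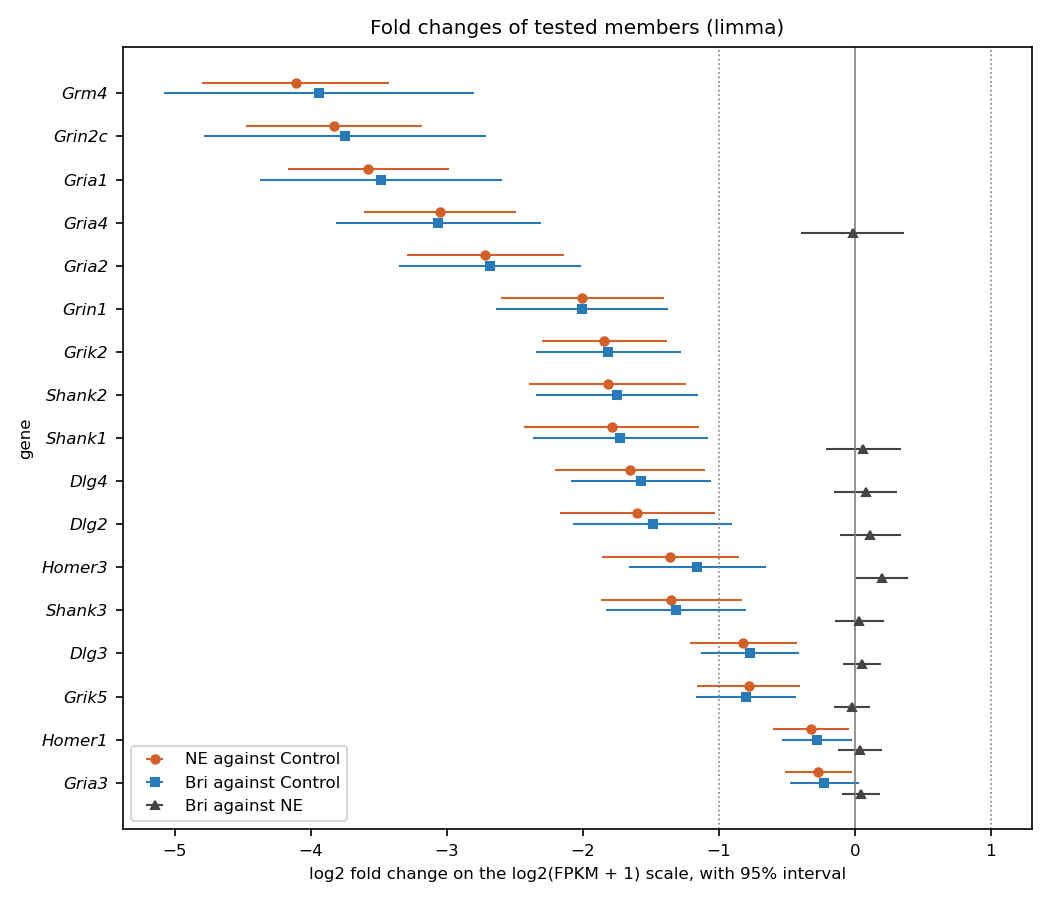
Log2 fold changes on the log2(FPKM + 1) scale with 95% intervals (limma) for the 17 members tested against Control, in 3 comparisons, with dotted lines at the minimum size of 1. Both comparisons with Control run from near 0 for Gria3 to -4.11 (NE) and -3.94 (Bri) for Grm4, and the 10 members tested in Bri against NE lie between -0.02 and 0.20.

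The sizes of the differences varied between subunits, and the composition of each family differed between groups. Gria3 made up 18.0%, 8.77% and 13.1% of summed AMPA FPKM in Control 1, 2 and 3, and 59.7% to 82.0% in NE with a median of 73.9%. Gria1 went the other way, at 33.4% to 36.2% in the controls and 2.70% to 11.7% in NE. Neither share overlapped between Control and NE.

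Among the GluN2 genes, Grin2c made up 93.6%, 93.7% and 91.5% of the sum in the 3 controls and 17.6% to 68.3% in NE, with a median of 46.1%. Grin2d was 2.75% to 4.28% in the controls and 29.1% to 80.0% in NE, on sums of 0.357 to 1.06 FPKM, which are few fragments. Grm4 was 88.0% to 89.5% of the metabotropic sum in Control and 9.22% to 72.3% in NE. Grik5 was 48.1% to 57.3% of the kainate sum in Control and 67.8% to 89.1% in NE. The NE ranges of Grin2c and Grm4 were wide, while that of Grik5 stayed above all controls.

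**Figure D5:**
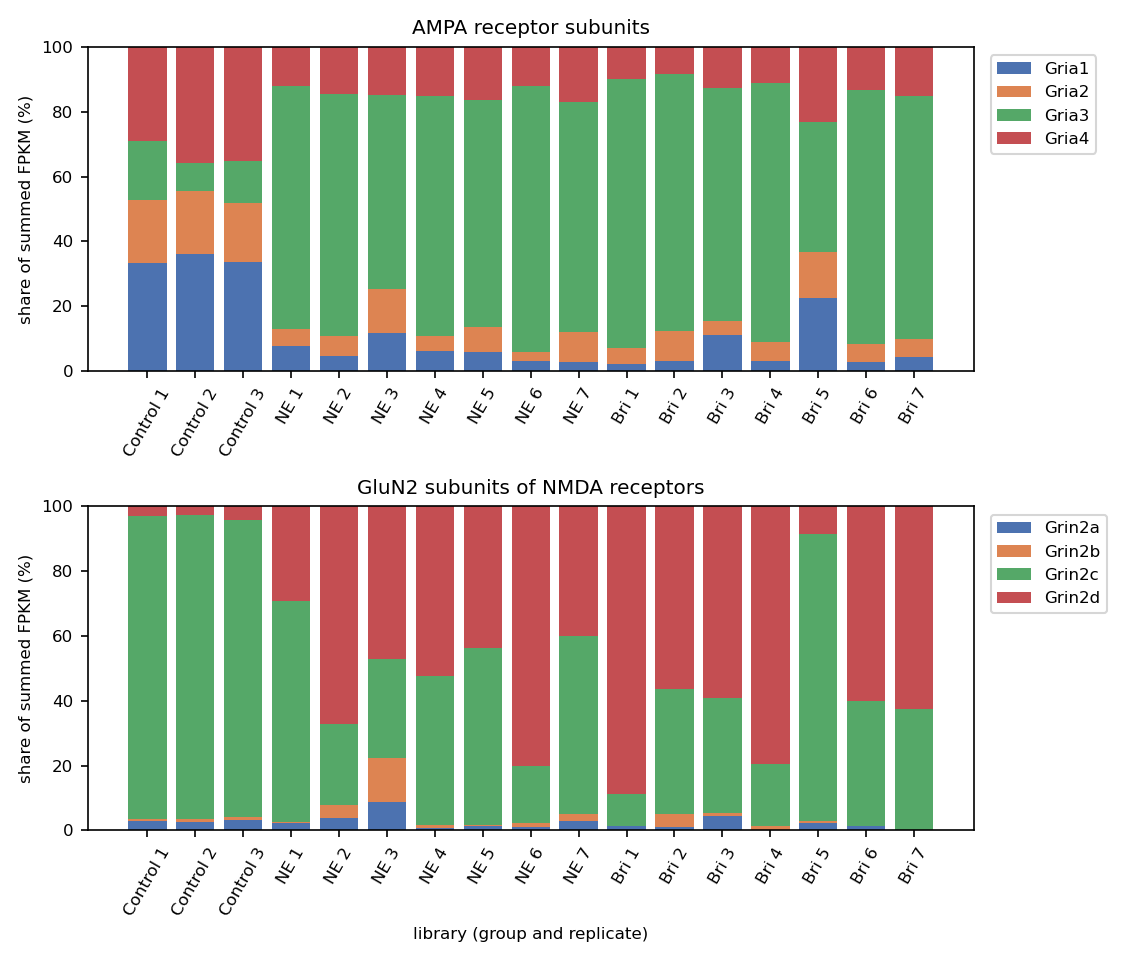
Stacked bars of the share of summed FPKM (percent) held by each AMPA subunit gene (top) and each GluN2 gene (bottom) in the 17 libraries. Gria3 is 8.77% to 18.0% in the controls and 40.1% to 82.8% in the exposed libraries, with Bri 5 lowest among these, and Grin2c is 91.5% to 93.7% in the controls and, among the exposed libraries, highest in Bri 5 at 88.5%.

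Bri and NE were compared to ask whether brimonidine changed the response to noise. Of the 10 members that could be tested, limma called 0 at an adjusted p of 0.05, and 1 was higher at an unadjusted p under 0.05, where 3.3% of 15707 genes were higher and 2.46% lower at that level. That gene was Homer3, at a lowest, median and highest of 2.62, 3.35 and 4.20 FPKM in Bri against 1.99, 2.88 and 3.26 in NE. The ranges overlapped, and the difference was 0.20 ± 0.09 (limma adjusted p = 0.857, exact permutation p = 0.0437). Voom called 0 of 29 members, with 1 higher at an unadjusted p under 0.05 (background 2.97%) and 0 lower (background 2.62%). Over all genes the main test called 0 as well.

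The intervals show what differences the data allow. For Gria3, Bri was 4.07, 4.91 and 5.31 FPKM at the lowest, median and highest, and the difference from NE was 0.05 with a 95% interval of -0.09 to 0.18. For Grik5, Dlg3, Shank3 and Homer1 the intervals likewise lay within -0.15 and 0.21. Gria4 was 0.548, 0.731 and 2.99 FPKM in Bri, and its interval on the log2(FPKM + 1) scale was wider, at -0.39 to 0.37. That scale understates low genes, and voom gave -0.75 to 0.51 for Gria4. Wider intervals were found for some members with large differences from Control: voom's interval was -1.26 to 1.22 for Gria1, -1.92 to 1.23 for Grin2c and -1.33 to 1.63 for Grm4.

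Bri 5 held the highest Bri value for 27 of 34 entries, Gria3 and Dlg3 not among them. Gria1 was 2.90 FPKM in Bri 5 and 0.213 in the median of the other Bri libraries, and Grm4 was 4.73 against 0.205. Grin2c was 3.47 against 0.171, Grin1 was 1.28 against 0.376, and Dlg4 was 5.97 against 4.05. In the same library Gria3 was 1.06 times and Grik5 1.18 times the median of the others. Without Bri 5, voom's intervals were -1.44 to 0.37 for Gria1, -2.21 to 0.16 for Grin2c and -1.49 to 0.51 for Grm4. That fit called 0 of 29 members, with 1 lower at an unadjusted p under 0.05 (background 2.88%). It was Gria4, at -0.42 (95% interval -0.78 to -0.07, voom adjusted p = 0.909), named after its value was seen. The sum of cerebellar granule cell markers was 69.1 in Bri 5 and 20.1 to 25.4 in the other Bri libraries, and the part of those cells in these values was not tested.

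Bri against Control shares its 3 controls with the NE comparison, so the values are given side by side and are not independent of it. With no filter, 27 of 34 entries were lower in every Bri library than in every control (background 9.81%). Of 17 members tested 13 fell and 0 rose (limma, background 5.56% lower), but 8 of the 17, the same 7 genes and Gria4, reached 1 FPKM in at most 1 Bri library and passed the filter only because the controls were high. Of the other 9, 5 fell. Voom called 25 of 33 lower (background 9.27%), and without Control 2 it called 21 of 33 (background 6.79%). The main test without Control 2 called 10 of 16 (background 2.9%), and without Control 2 and Bri 5 together, when 9 members were left to test, 3 of 9 (background 2.14%). Grm4 fell by 3.94 ± 0.52 in Bri and 4.11 ± 0.31 in NE, and Gria1 fell by 3.49 ± 0.40 and 3.58 ± 0.27. Gria3 differed by -0.22 ± 0.12 (limma adjusted p = 0.192) in Bri and -0.27 ± 0.11 in NE.

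Of the 17 entries below the main filter in this comparison, 12 were lower in every Bri library than in every control and 5 overlapped, where 5.71% of 17558 genes below the filter were lower in this way. Among these 5, voom called Grm8 lower at -1.23 (adjusted p = 0.0477), but not without Control 2 (-0.85, adjusted p = 0.201). For Homer2 it gave -0.53 (adjusted p = 0.185). It gave 0.51 for Grm6, or 1.14 without Control 2 (adjusted p = 0.325). For Grin3b it gave -0.10, or 0.07 without Control 2 (adjusted p = 0.957). The other Dlg2 entry had no voom fit. Grin2a was 0 to 0.0941 FPKM in Bri, Grin2b 0 to 0.0224 and Grm5 0 to 0.0768, each below all 3 controls. Grik1 and Grin2b, which overlapped between NE and Control through NE 3, did not overlap between Bri and Control. Over all 34 entries, the 7 that overlapped were Gria3, Grin3b, Grm6, Grm8, Homer1, Homer2 and the other Dlg2 entry.

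Other proteins of the same synapses were read from a list of 42 genes: auxiliary subunits of AMPA and kainate receptors, linkers and enzymes of the postsynaptic density, receptor anchors and adhesion proteins. In NE against Control, with no filter, 27 of 42 were lower in every NE library than in every control (background 10.1%). In the main test 28 could be tested, 10 of them only because the controls were high, Nptx1 among these. Of the 28, 18 fell and 0 rose (background 5.49% lower and 0.27% higher). The selection of those 10 already favoured a difference, and 9 of them fell, as did 9 of the other 18. Without Control 2 the partners that fell were 8 of 19 (background 2.2%), and on the original gene set 16 of 28 (background 3.47%). The 3 with the smallest p were Cbln1, Nptx1 and Nsg1. Cbln1, a secreted bridge between neurexin and delta receptors that is also in the granule cell marker list, was 35.3, 89.9 and 32.1 FPKM in the controls and 0.814 to 2.70 in NE, and fell by 4.45 ± 0.30 (limma adjusted p = 4.99e-05).

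Nptx1, a pentraxin that gathers AMPA receptors, was 16.5, 49.8 and 17.1 FPKM in the controls and 0.389 to 1.15 in NE, and fell by 3.87 ± 0.29 (limma adjusted p = 4.99e-05). Nsg1, a protein of AMPA receptor recycling, was 25.1, 58.9 and 27.2 FPKM and fell by 2.57 ± 0.22 (limma adjusted p = 8.96e-05). In Bri against Control 18 of 27 fell (background 5.56%). Of the 27, 9, Dlgap3 among them, were testable only because the controls were high. All 9 of these fell, as did 9 of the other 18. The 3 with the smallest p were Camk2b, Nsg1 and Dlgap3 (limma adjusted p = 0.00111 for each). Camk2b, a subunit of CaM kinase II, differed by -2.53 ± 0.30, Nsg1 by -2.64 ± 0.32 and the PSD-95 partner Dlgap3 by -2.24 ± 0.28. In Bri against NE 0 of 18 were called by limma and 0 of 37 by voom, and 0 had an unadjusted p under 0.05 in either.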

How the data were processed

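The authors deposited 1 table of FPKM values, 35285 genes by 17 libraries. Per the labels and the study's methods, RNA was extracted with TRIzol and libraries were made with a stranded TruSeq mRNA kit. The submitters' processing notes name Trimmomatic, HISAT2, Cufflinks and HTSeq and the build mm10, with no versions. FPKM divides by exon length and by counted fragments and applies no other scaling, so a few very abundant genes can shift all others. Multiplying by exon length (GENCODE M21, or a length solved from the values) gave whole fragments for all 34 member entries within 0.05.

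Groups came from the sample titles. limma 3.58.1 (lmFit, eBayes with trend, R 4.3.3) was run on log2(FPKM + 1) for genes with at least 1 FPKM in at least 3 libraries compared, each model holding 2 groups, with Benjamini-Hochberg adjustment over all genes tested. Genes were called at an adjusted p below 0.05 when the log2 difference was 1 or more in size. limma's voom was fitted to recovered fragments of genes with at least 10 in at least 3 libraries. DESeq2, which the study used, was not run here. Exact permutation tests were two-sided, and 7 against 3 cannot go below p = 0.0083. Python 3.11.15 with scipy 1.17.1 was used, and both fits were tested on simulated data. Every member is named. Partner genes named are the 3 with the smallest p in each direction. Members and lists were chosen with earlier results of these data known. Alternatives were a pseudocount of 0.1, no filter, other scalings, 1 model for 17 libraries, array weights, robust eBayes, no minimum fold change, replicate numbers as a block, and libraries left out. Added after seeing the data were Control 2 or Bri 5 left out of the voom fit, Control 2 left out on the original gene set, and the block's libraries without the block.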

Additional observations from a re-analysis of the deposited data

Results flagged for a closer look

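In groups of 7, a library was singled out where its gap to the nearest other, as a share of the group's range, exceeded Dixon's 95% critical value, which chance passes in about 1 of 20 groups. Of 17 members examined, 10 singled out Bri 5 as the highest Bri library, as did 3.19% of 16356 genes tested: Gria1 at 2.90 FPKM, Gria2 at 1.86, Gria4 at 2.99, Grik2 at 0.76, Grin1 at 1.28, Grin2c at 3.47, Grm4 at 4.73, Shank2 at 1.53, Dlg2 at 2.35 and Dlg4 at 5.97. In NE, 1 member singled out NE 3 (Gria1 at 1.02 FPKM, next 0.528), as did 0.856% of genes, and 1 singled out NE 1 (Grm4 at 1.04 FPKM, next 0.451), as did 0.532%.

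NE 3 was the highest NE library for 19 of 34 entries, and it also held the highest NE sums of spiral ganglion markers (77.4, with Prph at 10.5 FPKM), Schwann cell markers (131) and central glia markers (25.2). These values were not tested.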

How the results depend on the processing

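Members called in NE against Control stayed at 13 under pseudocount 0.1, no filter, 3 other scalings, 1 model for all libraries and robust eBayes. Under these settings 2.67% to 7.09% of all genes were called lower. The count was 11 with array weights (4.22% of all genes called lower) and 15 without the minimum fold change (12.0%). Leaving out 1 library gave 8 to 13 for NE, 10 to 13 for Bri against Control and 0 for Bri against NE. The share of all genes called lower then ran from 2.2% to 5.74% for NE and from 2.9% to 5.82% for Bri against Control. With Control 2 and Bri 5 both out the Bri count was 3, with 9 members left to test (2.14% of all genes). Voom gave 24 (NE) and 25 (Bri) members, where 8.79% and 9.27% of all genes were called lower. It gave 21 and 21 without Control 2 (6.16% and 6.79%), and 26 for Bri without Bri 5 (9.29%). For the 42 partners (18 of 28 and 18 of 27 in the main test), leaving out 1 library gave 8 (without Control 2) to 18 for NE. It gave 11 without Control 3, where 4.68% of all genes were called lower. For Bri it gave 12 to 19, and 7 with Control 2 and Bri 5 both out. Voom gave 27 and 31 partners, and 30 for Bri without Bri 5. At each setting the all-gene shares are those given for the members.

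The replicate numbers did not pair the samples: deviations of same-numbered libraries correlated at -0.22 to 0.02 in NE against Control, -0.15 to 0.08 in Bri against NE and -0.19 to 0.08 in Bri against Control, and 0 of 7 Bri libraries correlated best with their own number in NE. With the number as a replicate block over 3 libraries a group, 0 members and 0 partners were called in NE against Control. The same libraries without the block also gave 0 and 0. Both fits called 0 of all 15426 genes lower, so these counts are not particular to the members or partners. In Bri against Control the block gave 6 members and 6 partners, where 1.69% of 15351 genes were called lower. The same libraries without the block gave 7 and 10, where 2.42% were. The block changed no call in Bri against NE.

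Of the 17 members in the main test, none turned direction against Control except Gria3 in Bri, which was 0.03 under array weights. Of the others, in the voom fit, Grm6 in NE (-0.04 to 0.59) and Grin3b in Bri (-0.10 to 0.07) did so without Control 2, and neither was called. In Bri against NE, where no member was called, Gria4, Grik5, Homer1, Shank1 and Shank3 crossed 0 under some settings. With 3 controls precision rests on few animals, and the lowest members rest on few fragments (0 to 5 a library for Grm2 in NE).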
